A study of Oncorhynchus mykiss with 12 samples.

Results

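The 100 microarray probes described here differed from control in the head kidney of rainbow trout fed T3 and lay near control in trout fed PTU. They were chosen from 9772 of the 12884 trout probes on the array, namely those well above background on all 12 arrays, without the 100 brightest in control. Members had a T3 mean at least 0.75 from the control mean and a PTU mean less than 0.25 from it, on the log2 scale. Of these 9772 probes 167 (1.71%) met both limits, and the 100 with the largest T3 difference were kept. The 2 differences that chose the members are given below as descriptions, without a test. Levels are the log2 intensity of a spot minus the 75th percentile of its array.

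The fish were juvenile rainbow trout (Oncorhynchus mykiss) of 50 g, kept in 6 aquaria of 10 fish. Control fish received no agent, each g of feed held 20 µg of T3 for the T3 fish and 5000 µg of PTU for the PTU fish, and feeding lasted 7 days. Each group had 4 pools of 2 fish, and each pool was read on its own array. The labels name no strain and do not tie a pool to an aquarium, so with 12 pools from 6 aquaria some pools share one, and p-values measure only the spread between pools. Feed can therefore not be told apart from aquarium in any comparison, T3 against control included. The study asked how raised and lowered thyroid status affect transcripts, with a main interest in immune genes.

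T3 (triiodothyronine) is the active thyroid hormone, which binds nuclear receptors that switch target genes on or off. PTU (propylthiouracil) blocks hormone synthesis in the thyroid. The head kidney of bony fish makes blood cells and holds lymphoid tissue and hormone-secreting cells. In bulk RNA of such a tissue, fewer cells of a type and less RNA per cell cannot be told apart. The files give the probes by ID, without genes, so the members are described by ID and the tissue's marker genes were not analysed here.

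Slide 1 held the control and T3 pools and slide 2, scanned separately, the PTU pools. The PTU feed cannot be told apart from slide and scan, which touches the PTU side of each member. On 3 arrays, control replicate 2, T3 replicate 1 and PTU replicate 3, the dimmest 20% of probes lay 1.88 to 2.67 above their medians, against -0.93 to 0.19 on the 9 others. The share of probes well above background was 97.4% to 99.6% on those 3 arrays and 79.1% to 93.2% on the others. Differences of most members described in detail below are also given without these 3 arrays.

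Probes whose IDs lay 6442 apart behaved as duplicates, a structure that was read from the values; the files do not say whether they share a sequence. Over the 4838 such pairs measured on all arrays, the deviations of both probes from their group means had a median Pearson r of 0.986 over the 12 arrays. This r was 0.95 or more in 86.2% of the pairs. Among 12673 other ID distances, the highest median r was 0.214 and the highest share at 0.95 or more was 4.04%. The levels of both probes of a pair had a median log2 difference of 0.074, although their spots lay a median of 67.1 spot steps apart. The probe 6442 IDs from a member is called its partner. Partners share the pool and the array, so they are not biological replicates.

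Of the 100 members 82 were higher and 18 lower in T3 than in control. This split depended on the scaling of the arrays: the same rule gave 59 higher of 100 after quantile normalization, 40 in the deposited value table and 33 with median scaling, where the median difference of all 9772 probes was -0.0003, -0.016 and -0.126. After normexp background correction it was 37 higher of 67. That correction added an offset of 50 to each intensity, which shrinks the log2 differences of dim probes most. The part of the offset in the values below was not tested. Among all 1410 probes (14.4% of 9772) at least 0.75 from control in T3, 66.4% were higher. The higher ones made up 9.58% of the 9772 and the lower ones 4.85%, and the rule chose members on this difference, so nothing is read from these shares. The T3 minus control differences ran from 0.85 to 2.24 in the higher members (median 1.00) and from -1.24 to -0.86 in the lower ones (median -0.93). Over all 9772 probes the median difference was 0.11. The PTU minus control differences of the members ran from -0.25 to 0.23. Most of the higher members were dim, with a median control level of -3.15 against -1.50 for all 9772 probes, whereas the lower members had a median of -1.18.

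**Figure D1:**
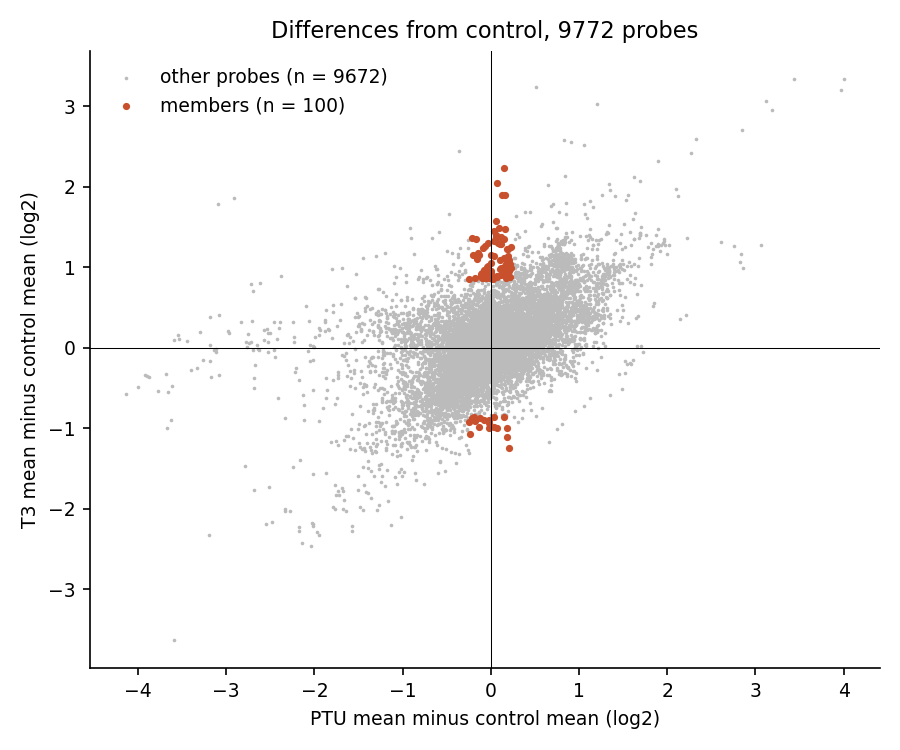
Difference of the T3 mean from the control mean (vertical, log2) against that of the PTU mean (horizontal, log2) for 9772 probes. Orange-red points are the 100 members and grey points the 9672 others; the members form an upper band of 82 and a lower band of 18, whose edges are set by the rule.

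In limma, fitted to all 11762 tested probes, no member passed an adjusted p of 0.05 for T3 against control, and neither did any other probe (0% called). Unadjusted p lay under 0.05 for 632 of these probes (5.37%). PTU against control and T3 against PTU also called 0% of the probes, and their unadjusted p lay under 0.05 for 1234 (10.5%) and 810 (6.89%). The rule used these contrasts, so the members' own places in them are not read as results.

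Few members held the T3 pools apart from the control pools. All 4 T3 pools lay above all 4 control pools for 4 of the 100 members, all among the 82 higher ones. Over all 9772 probes, of either direction, the share was 1.55%. All 4 T3 pools lay below all control pools for 4 of the 100 members, all among the 18 lower ones, against 2.52% of all 9772 probes. In 34 of the higher members a single T3 pool exceeded the control range, in 21 it was 2 pools, in 18 it was 3, and in 5 members none did. The T3 mean itself lay above the highest control pool in 42 higher members and below the lowest control pool in 8 lower ones. The rule chose members for a T3 mean far from the control mean. Shares over all probes are given only for the counts with all 4 T3 pools apart, so nothing is read from the other counts.

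JC001810 and its partner JC008252 were the brightest members that separated T3 from both other groups. JC001810 lay at 5.05, 4.07, 5.27 and 5.27 in the control pools, at 5.59, 6.19, 5.69 and 6.19 in the T3 pools, and at 5.11, 5.10, 5.12 and 4.15 in the PTU pools. The lowest T3 pool was 0.32 above the highest of the 8 other pools. Its mean was 5.92 ± 0.322 (SD, n = 4) in T3, 4.91 ± 0.570 in control (n = 4) and 4.87 ± 0.480 in PTU (n = 4), and the T3 level was 2.00-fold the control level. JC008252 lay at 4.98, 3.91, 5.18 and 5.21 in control, at 5.63, 6.14, 5.60 and 6.12 in T3, and at 4.96, 5.01, 5.09 and 4.22 in PTU. The T3 minus control difference was 1.00 for JC001810 and 1.05 for JC008252. With any control or T3 pool omitted, the difference stayed between 0.72 and 1.12 for JC001810 and between 0.75 and 1.18 for JC008252. Leaving out those 3 arrays gave 0.83 for both, while the PTU minus control difference was -0.41 and -0.39. After normexp background correction the T3 minus control difference was 1.26 for JC001810 and 1.22 for JC008252.

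A dimmer pair, JC001907 and JC008349, also held all 4 T3 pools above the 8 others, by gaps of 0.04 and 0.06. JC001907 lay at -2.61, -3.03, -2.87 and -3.10 in control, at -1.23, -2.34, -2.46 and -2.14 in T3, and at -2.65, -3.58, -2.51 and -3.61 in PTU. T3 replicate 1 was by far the highest of the T3 pools. The difference of JC001907 was 0.86 with all pools, 0.59 without T3 replicate 1 and 0.55 without the 3 arrays. After normexp background correction it was 0.02, where the median over the 9772 probes was -0.23. For JC008349 these values were 0.92, 0.56, 0.55 and 0.03. Over all 9772 probes, 0.102% held all T3 pools above all control and PTU pools, and 0.317% held them all below.

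**Figure D2:**
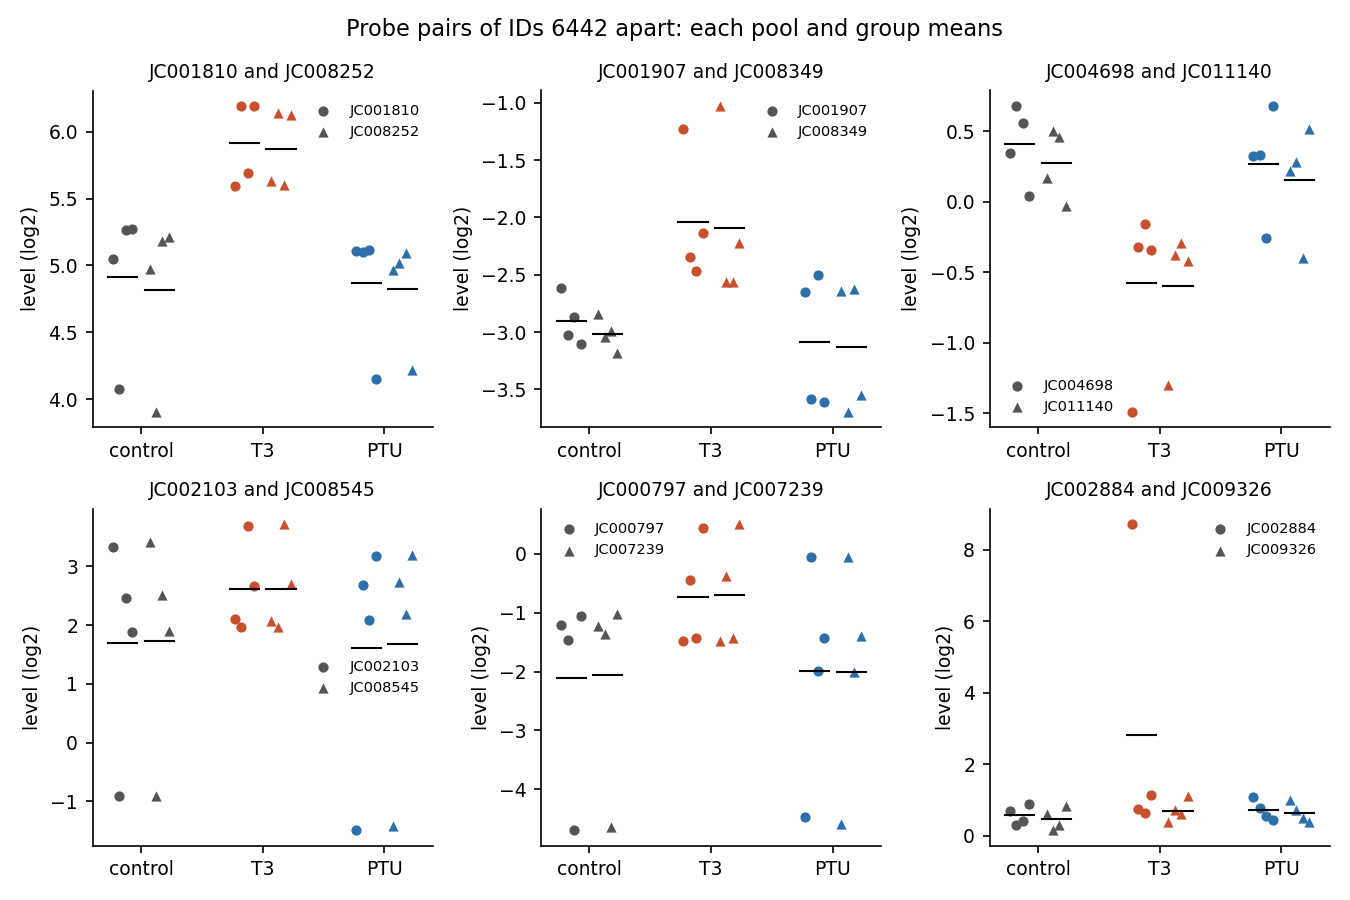
Levels (log2, relative to the 75th percentile of the array) of 6 probe pairs in the 4 pools of each group, with circles for the first and triangles for the second probe of a pair and a bar at each group mean. T3 lies apart for JC001810 and JC001907, the group means of JC002103 and JC000797 are drawn down by single control and PTU pools, and JC002884 is high on 1 T3 spot that its partner JC009326 does not share.

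Among the lower members, JC004698 and its partner JC011140 showed the smallest spread within control. JC004698 lay at 0.35, 0.68, 0.56 and 0.04 in control, at -1.49, -0.32, -0.16 and -0.34 in T3, and at 0.32, 0.33, -0.25 and 0.68 in PTU. The T3 pools lay below all control pools, and PTU replicate 3 lay within the T3 range. The T3 mean was -0.58 ± 0.613 (SD, n = 4) against 0.41 ± 0.281 in control (n = 4). The difference of -0.98 was -0.68 without T3 replicate 1, the lowest pool, and -0.59 without the 3 arrays. JC011140 gave -0.87 with all pools and -0.56 without the 3 arrays.

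JC003312 was the 1 lower member with all T3 pools below the 8 others, although by a gap that rounds to 0.00. It lay at -2.26, -2.37, -2.22 and -2.16 in T3, a narrow range (SD 0.0901, n = 4). In control it lay at -2.16, -0.37, -0.61 and -1.94, and in PTU at -1.89 in replicate 3 and between -1.08 and -0.98 in the other pools. Control thus held a pair of high and a pair of low pools, and the low ones lay near the T3 level. Its partner JC009754 lay at -2.19, -2.08, -2.23 and -2.10 in T3 and at -2.14, -0.34, -0.67 and -1.86 in control, so that the ranges overlapped there. Without the 3 arrays with raised dim signals the T3 minus control difference of JC003312 went from -0.98 to -0.68 and its PTU minus control difference was 0.55. JC004751 also had high control replicates 2 and 3 (-1.66, -0.33, -0.47 and -1.77 in control), with T3 at -2.41, -1.86, -1.82 and -1.84. PTU replicate 3 was at -2.38 for that probe, against -1.03 to -0.86 in the other PTU pools.

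The largest drop was that of JC004721, by 1.24, and of its partner JC011163, by 1.11. JC004721 lay at -3.08, -1.19, -1.89 and -2.97 in control, at -4.38, -3.03, -3.24 and -3.45 in T3, and at -2.49, -1.87, -2.19 and -1.75 in PTU. All T3 pools lay below all PTU pools, while T3 replicate 2 lay within the control range. Without the 3 arrays the T3 minus control difference of JC004721 was -0.59 and its PTU minus control difference 0.61. Those of JC011163 were -0.65 and 0.57. Both probes then missed the T3 limit of 0.75 as well as the PTU limit of 0.25.

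The members were not 100 separate readings. They covered 67 ID pairs: in 33 of them both probes were members, and 34 members had a partner outside the set. Complete-linkage grouping of the deviations from group means, cut at r = 0.95, gave 50 profile groups, of which 25 held a single probe, 19 held 2 and 6 held 3 or more. This cut was chosen after the values were seen. The largest groups held 13 and 10 probes.

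The 13-probe group joined 7 ID pairs, with IDs from JC001978 to JC002218 and their partners, and its probes correlated with each other at r = 0.979 or more. Its median level was 3.41 in control replicate 1, -1.08 in control replicate 2, 2.45 in control replicate 3 and 1.86 in control replicate 4. In T3 the medians were 1.95, 1.97, 3.70 and 2.65, and in PTU they were -1.45, 2.69, 2.14 and 3.18. Control replicate 2 and PTU replicate 1 were low, and no T3 pool was. With control replicate 2 omitted the median T3 minus control difference of the group fell from 0.91 to 0.04, and leaving out the 3 arrays gave 0.21. The closest member pairs of all lay here. JC002193 and JC008420 had an r of 0.999895 and JC008420 and JC008660 one of 0.999823, although neither is an ID pair, while the ID pair JC002103 and JC008545 had 0.999853. A further 23 probes outside the set had an r of 0.95 or more with the group's mean profile. Their T3 minus control differences were 0.34 to 0.85, and 7 of them met both limits beyond rank 100.

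The 10-probe group joined 5 ID pairs, among them JC000797 with JC007239 and JC001355 with JC007797, at r = 0.993 or more. Its median level was -1.22, -1.40, -4.69 and -1.05 in the control pools, -1.54, -0.38, -1.46 and 0.48 in the T3 pools, and -4.61, -0.08, -2.00 and -1.39 in the PTU pools. Here control replicate 3 and PTU replicate 1 were low, and no T3 pool was. Without control replicate 3 the median difference fell from 1.34 to 0.48, the lowest value with 1 control or T3 pool omitted; the highest was 1.68. Leaving out the 3 arrays raised it to 1.83. Within an array its probes lay close together, between -4.81 and -4.45 in control replicate 3 and between 0.25 and 0.52 in T3 replicate 4. No other probe of the 9772 had an r of 0.95 or more with its mean profile.

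JC008021 and JC001579, an ID pair with the third and the next largest difference, repeated this arrangement. JC008021 lay at -0.91, -1.10, -6.00 and -1.53 in control, at -0.06, -0.64, -1.35 and 0.09 in T3, and at -3.57, -0.96, -2.40 and -1.95 in PTU. Its difference of 1.89 was 0.69 without control replicate 3, and that of JC001579 was 1.89 and 0.64. Leaving out the 3 arrays gave 2.18 for JC008021 and 2.25 for JC001579, with PTU minus control differences of 0.65 and 0.67. JC002046, JC008488 and JC008489 formed a profile group of 3 lower members. JC002046 lay at -4.60, 0.99, -0.43 and -0.37 in control, at -0.74, -0.78, -4.37 and -2.10 in T3, and at -1.82, 0.20, -1.33 and -1.53 in PTU. The lowest pool was control replicate 1, followed by T3 replicate 3. The difference of JC002046 was -0.90 with all pools, between -2.06 and -0.11 with 1 pool omitted, and -0.62 without the 3 arrays.

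**Figure D3:**
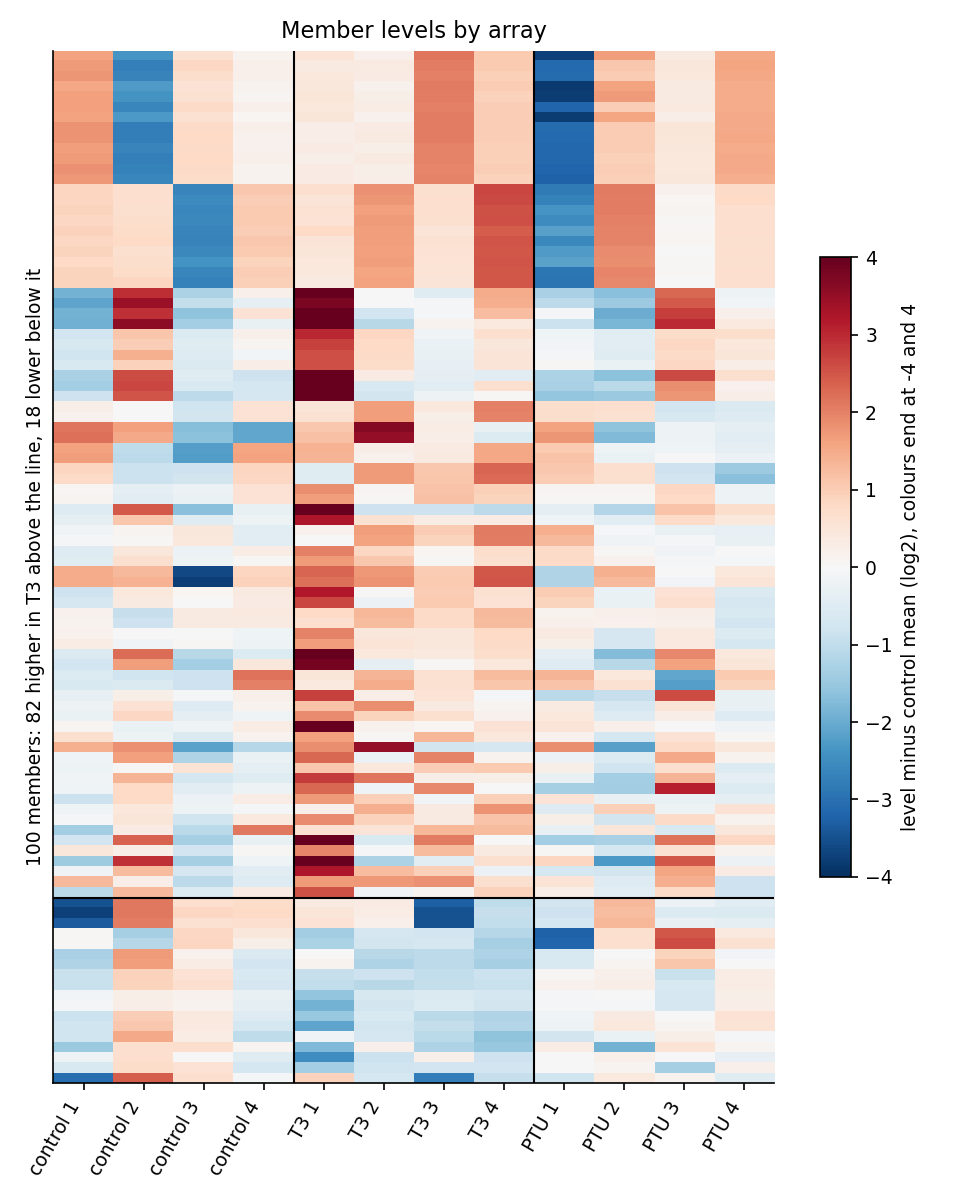
Level of each of the 100 members (rows) on each of the 12 arrays (columns), minus the member's control mean (log2, colours end at -4 and 4). Rows run by profile group, with the 82 higher members above the horizontal line; the 13-probe and 10-probe groups at the top are low in 1 control and 1 PTU pool each, and T3 replicate 1 is the highest T3 pool for 38 of the 82.

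The 2 members with the largest differences were each high on a single spot. JC002884 lay at 0.70, 0.31, 0.42 and 0.89 in control, at 8.71, 0.76, 0.64 and 1.15 in T3, and at 1.10, 0.79, 0.57 and 0.44 in PTU. Its partner JC009326 was at 0.38 on the array where JC002884 was at 8.71, and at 0.72, 0.60 and 1.12 on the other T3 arrays. The T3 minus control difference was 2.24 for JC002884 and 0.22 for the partner. It was 0.27 for JC002884 without T3 replicate 1 and 0.18 without the 3 arrays. The spot of JC002884 was not marked as an outlier by the scanner software. JC005963 lay at 7.30 on T3 replicate 1 and at -4.43, -4.44 and -4.64 on the other T3 arrays, in a spot that the software did mark. Its partner JC012405 read -1.14 there. The difference of JC005963 was 2.05 with that spot and -0.90 without it, -0.08 without the 3 arrays, and 0.05 for the partner.

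T3 replicate 1 was also the highest T3 pool of other dim members. JC008454 lay at -0.25, -4.61, -4.62 and -4.32 in T3, at -5.60, -2.79, -6.14 and -5.57 in control, and at -5.39, -6.76, -3.10 and -4.60 in PTU. The highest pool of each group was one of the 3 arrays with raised dim probes. Its partner JC002012 gave a difference of 1.24 against 1.58. JC008839 was raised on the same arrays, at -0.89 on T3 replicate 1, -2.96 on control replicate 2 and -3.14 on PTU replicate 3. It was also raised on T3 replicate 3, at -3.24, where its partner JC002397 was at -6.43. For the partner the difference was 0.45 against 1.48 for JC008839. Without T3 replicate 1 the difference was 0.51 for JC008454 and 0.50 for JC008839, and leaving out the 3 arrays gave 1.25 and 1.29. On the arrays then left, JC002397 lay at -6.50, -6.43 and -5.62 in T3 and at -5.77, -6.48 and -5.40 in control. The value of 1.29 for JC008839 thus did not carry over to its partner. T3 replicate 1 was the highest T3 pool in 38 of the 82 higher members (46.3%), against 37.3% of all 9772 probes. Control replicate 3 was the lowest control pool in 36 of the 82 (43.9%), against 22.1%. In the 18 lower members control replicate 2 was the highest control pool in 15 (83.3%), against 42.7%, and control replicate 1 the lowest in 11 (61.1%), against 25.6%. The rule used these arrays and the members include ID pairs, so nothing is read from these shares. Without T3 replicate 1, 59 of the 100 members stayed at least 0.75 from control in the same direction and 6 changed sign.

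Partners show how a member's value carried over to another spot on the same array. They are given as a description, since they share the arrays and the contrast of the rule, and 66 of them are members. All 100 partners had a T3 minus control difference of the same sign as the member, and in 85 it was 0.75 or more. For 86 members the r with the partner was 0.95 or more, and for 3 it was below 0.8. The 34 members whose partner was no member had a median difference of 0.97 in size, and their partners one of 0.83 in the member's direction. Of those partners 10 missed only the PTU limit, 9 only the T3 limit and 4 both, 6 met both limits beyond rank 100, and 5 were not well above background on every array. JC000593 had the lowest r with its partner after JC002884, at 0.205. Its difference was 0.87 and that of JC007035 was 0.08, with T3 replicate 2 at -2.72 on the member's spot and at -5.62 on the partner's. These 2 probes were picked for this after their values were seen.

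**Figure D4:**
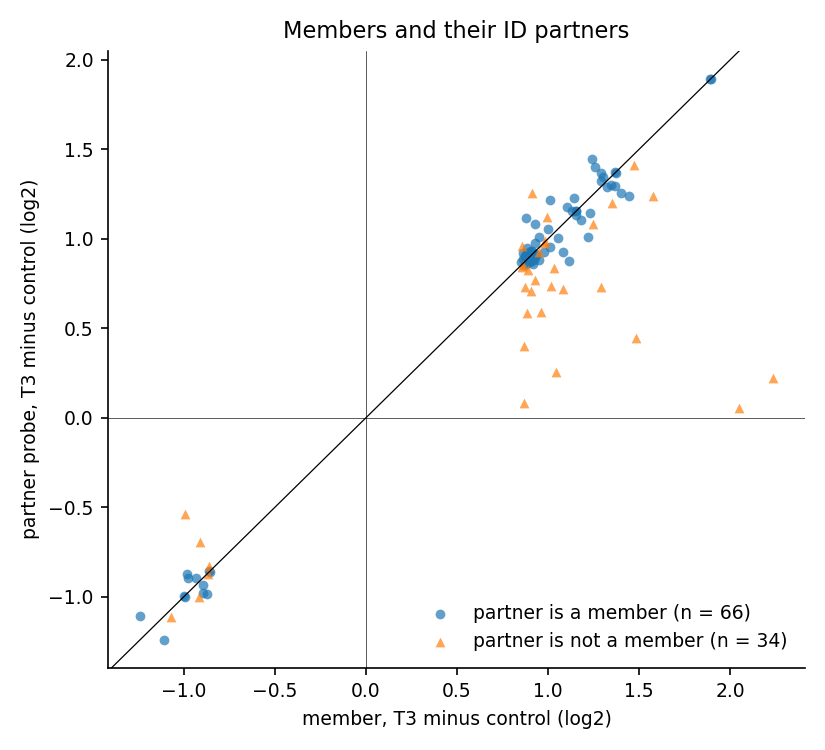
T3 minus control difference (log2) of each member (horizontal) and of the probe with the ID 6442 away (vertical), with the line of equal values. Circles are the 66 members whose partner is a member and triangles the 34 whose partner is not; JC002884 and JC005963 are the triangles at 2.24 and 2.05 with partners at 0.22 and 0.05.

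Most members did not stay past the T3 limit under every omission of a single pool. Their differences began at 0.85 in size, so a small change could bring them under 0.75. JC008252, with all T3 pools above the 8 others, missed it at 0.749. The same counts over other probes are not given here, so they are not read as particular to the members. With each control or T3 pool omitted in turn, 13 members stayed at least 0.75 from control every time, 10 of them higher and 3 lower, from 9 ID pairs. The sign held under every such omission for 89 members. Without the 3 arrays with raised dim probes, 51 members stayed past 0.75 (48 higher, 3 lower) and 1 changed sign. PTU then left the allowed range for 68 members, so 15 of the 100 met both limits.

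4 of the 13 stable members, JC012404, JC005967, JC004779 and JC007966, also met both limits without the 3 arrays, and all were higher in T3. JC012404 lay at -3.51, -4.54, -5.83 and -5.30 in control, at -3.08, -3.06, -2.98 and -4.16 in T3, and at -4.23, -5.30, -3.35 and -5.63 in PTU. 3 of the T3 pools lay above every control pool. Its difference of 1.47 stayed between 1.13 and 1.90 with 1 pool omitted and was 1.41 for the partner JC005962, whose PTU difference of 0.30 kept it out of the set. The difference of JC012404, a dim probe, was 1.48 without the 3 arrays and -0.05 after normexp background correction with its offset of 50. JC004779 lay at -2.29, -4.00, -3.97 and -2.29 in control, at -3.64, -1.43, -2.05 and -0.82 in T3, and at -2.06, -2.46, -3.97 and -4.60 in PTU. T3 replicate 1 was within the control range and the other T3 pools above it, with differences of 1.16 for JC004779 and 1.15 for its partner JC011221. Without the 3 arrays these were 1.42 and 1.41. The PTU minus control differences were then -0.19 and -0.29, so JC011221 missed the PTU limit. JC001524, the partner of JC007966, missed the T3 limit with all pools, at 0.72. JC012409, the partner of JC005967, was not well above background on every array.

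JC000219 and JC006661 were another pair among the 13. JC000219 was at -4.06, -2.91, -4.16 and -2.56 in T3, against -4.36, -4.58, -5.37 and -4.01 in control and -3.88, -3.92, -5.33 and -5.17 in PTU. T3 replicates 2 and 4 lay above all control and PTU pools, and the other T3 pools lay within the control range. Without the 3 arrays the T3 and PTU differences from control were 1.37 and 0.26 for JC000219 and 1.30 and 0.26 for JC006661. Outside the set, 5 probes had an r of 0.95 or more with the mean profile of this pair. Their T3 minus control differences were 0.69 to 0.81. All 5 lay beyond the PTU limit, with differences of 0.81 to 0.97 in size. In JC007285 and JC000843 the highest T3 pools were again replicates 2 and 4. JC007285 lay at -4.23, -2.73, -3.39 and -2.33 in T3 and at -4.54, -4.29, -3.94 and -4.82 in control. Its PTU pools were at -2.94, -4.48, -4.68 and -4.72. T3 replicates 2, 3 and 4 lay above all control pools, and PTU replicate 1 lay within the T3 range. Without the 3 arrays the T3 and PTU differences from control were 1.62 and 0.39 for JC007285 and 1.53 and 0.29 for JC000843. PTU thus left the limit in both pairs. Another 22 probes outside the set had an r of 0.95 or more with the mean profile of JC007285 and JC000843. Their T3 minus control differences were 0.93 to 1.12. All 22 lay beyond the PTU limit, with differences of 0.60 to 0.95 in size.

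**Figure D5:**
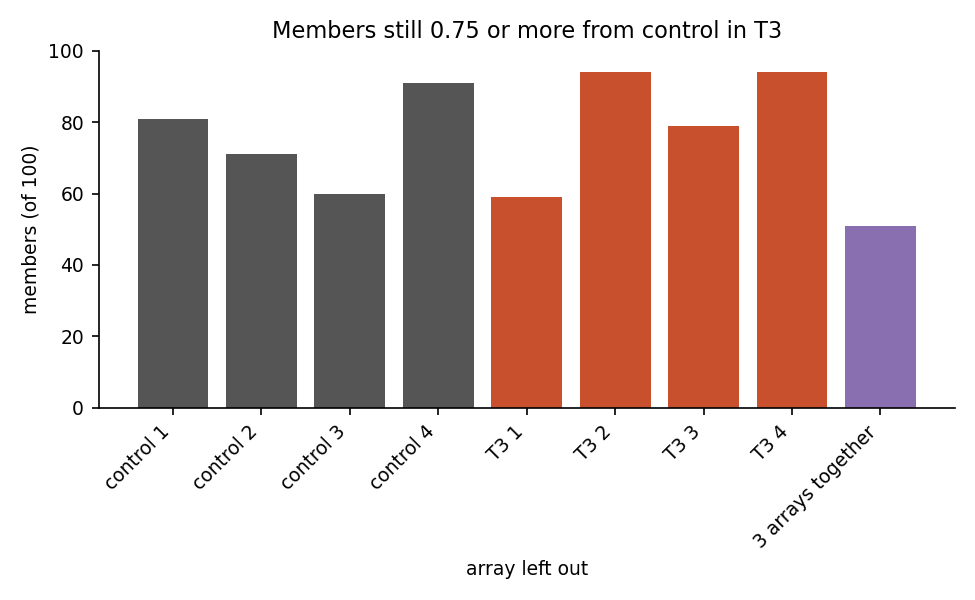
Number of the 100 members (vertical) that stayed at least 0.75 from control in T3, in the same direction, when the array named on the horizontal axis was omitted. The count was lowest without T3 replicate 1 (59) and control replicate 3 (60) among single arrays, and fell to 51 with control replicate 2, T3 replicate 1 and PTU replicate 3 left out together. Omitting PTU replicate 3 cannot alter this count.

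The remaining lower members named by the rule varied widely in PTU or in T3. JC010810 and JC004368, an ID pair, dropped by 1.00 each. JC010810 lay at 2.18, 1.02, 3.01 and 2.37 in control, at 0.87, 1.40, 1.49 and 0.82 in T3, and at -1.02, 2.83, 4.75 and 2.76 in PTU. The PTU mean met the limit although its pools spanned the widest range of the groups (SD 2.42, n = 4). Leaving out the 3 arrays, the T3 minus control difference was -1.28 for JC010810 and -1.31 for JC004368, and the PTU minus control difference -0.999 and -1.18. JC002060 lay at 0.73, 2.88, 2.90 and 2.30 in control, at 0.45, 2.41, 0.97 and 0.70 in T3, and at 2.49, 0.32, 2.76 and 2.32 in PTU, with 1 low pool in control, 1 in PTU and 3 in T3. Its difference was -1.07 with all pools and -0.62 without the 3 arrays. JC002375 lay at -4.10, -2.46, -1.41 and -2.42 in T3 and between -2.09 and -0.93 in control. Its partner JC008817 gave a difference of -0.54 against -0.99. That of JC002375 was -0.49 without T3 replicate 1 and -0.27 without the 3 arrays.

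The median SD between pools of a group was higher in the members than over all probes. Ranking by a difference of pool means favours probes that vary between pools, so a larger SD in control and T3 is partly built in. The members also include ID pairs and profile groups, so their SDs are not separate readings. The median SD within PTU was 1.05 in the members and 0.502 over all 9772 probes. It was 0.708 over the 1410 probes at least 0.75 from control in T3. Within PTU it was 1.23 in the higher members and 0.588 in the lower ones. Within control the medians were 1.29 for the members, 0.534 for all probes and 0.776 for the 1410. Within T3 they were 0.843, 0.471 and 0.824, so the members lay near the 1410 there. In the 13-probe and 10-probe groups a PTU mean near control was the mean of pools far apart.

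Directly against PTU, the members differed by 2.09 at most and -1.45 at least (T3 minus PTU), with medians of 1.00 for the higher and -0.89 for the lower ones. Both limits of the rule fix the sign of this difference. All T3 pools lay above all PTU pools for 5 of the 100 members, against 2.87% of all 9772 probes. These were the higher members JC001810, JC008252, JC001907, JC008349 and JC008277. All T3 pools lay below all PTU pools for 3 of the 100 members, against 2.37% of all 9772 probes. These were the lower members JC003312, JC004721 and JC011163.

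The limits cut through a continuous range. The last members by rank were JC012463 and JC003173, with T3 minus control differences of 0.86 and 0.85. The next probes, JC001973 and JC008415, lay at 0.85 each. JC005288 at -0.75 and JC011460 at 0.75 just met the T3 limit, and JC003468 and JC005018 at 0.74 just missed it. On the PTU side JC012463 at -0.25 and JC004751 at -0.24 were just inside. JC005290 and JC002899 lay just outside, at -0.25 each, with T3 differences of -1.31 and -0.89.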

How the data were processed

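Head kidney RNA of 12 pools was labelled with Cy3 and hybridised in 1 colour, per the labels' protocols. The deposited intensity of each spot is background-corrected and comes from Agilent Feature Extraction 10.7.3.1, per the file headers. It was put on the log2 scale minus the array's 75th percentile; group means of the rule include spots marked as outliers. The deposited value table holds each intensity as a fraction of its array's sum, as read from the values, with column medians between 2.9e-06 and 8.1e-06; no source used here states how it was made. It held 0 columns of other samples.

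The 3 groups entered 1 two-sided fit in limma 3.58.1 (R 4.3.3), on probes well above background on at least 3 arrays of a group, without outlier-marked spots or the 536 control spots, and p-values were adjusted by Benjamini-Hochberg. The number of arrays limits the precision. The fit, the rule and the search over ID distances were run on simulated data as a check of the code. For the fit, the simulation drew independent noise for each probe, without ID pairs or arrays with raised dim probes. It therefore does not show how the fit behaves on these data. None of the probe IDs matched the trout gene table used here, so gene lists and cell type markers were not analysed here.

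The members and lists were chosen with earlier results of these data known. The named probes were the 8 largest differences in each direction, members with all T3 pools outside the 8 others, the probes at the limits and the 3 closest member pairs. Other probes named as partners, profile groups or stable members were chosen after their values were seen. Alternatives were other scalings, background correction, filters, weights, a replicate block and the omission of arrays.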

Additional observations from a re-analysis of the deposited data

Results flagged for a closer look

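In 17 of 108 groups of 4 pools (36 named probes in 3 groups, 15.7%), 1 pool stood apart from the other pools by Dixon's criterion, which chance meets in about 1 of 20 groups. On T3 replicate 1 these were JC002884 at 8.71, JC005963 at 7.30, JC008454 at -0.25, JC012463 at 0.055, JC005018 at -0.39, JC004698 at -1.49 and JC004751 at -2.41. The last 2 were low there and the others high. On control replicate 3 JC008021 at -6.00, JC001579 at -6.03 and JC001355 at -4.79 were low. On control replicate 2 JC008454 at -2.79 and JC012463 at -1.74 were high. JC012404 was low on T3 replicate 4, at -4.16. On PTU replicate 3 JC003312 at -1.89 and JC004751 at -2.38 were low, and on PTU replicate 4 JC008252 at 4.22 and JC001810 at 4.15 were low. Most of the named probes were chosen for large differences or for the position of their pools, and they include ID pairs. Their share of 15.7% is therefore not read against chance.

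Over the members a pool stood apart in 17 of 100 control groups, 12 of 100 T3 groups and 10 of 100 PTU groups, against 6.67%, 9.07% and 5.85% of the 9772 probes. Control replicate 3 was that pool in 12 of the 100 members, against 0.706% of the 9772 probes. These 12 were the 10-probe group, from 5 ID pairs, and the ID pair JC008021 and JC001579. They are not separate readings, and they are also part of the 17 control groups. T3 replicate 1 was that pool in 10, against 6.88% of all probes. The part of either array in the members' differences was not tested.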

How the results depend on the processing

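T3 against control called 0 probes in every setting run. PTU against control called 7 probes after quantile normalization, 5 with array quality weights and 3 without the 3 arrays with raised dim probes, and T3 against PTU called 4, 7 and 2. With 1 array omitted these counts ran from 0 to 4 and from 0 to 3, highest without PTU replicate 3. With the replicate number as a block all 3 comparisons called 0 probes, and unadjusted p lay under 0.05 for 546, 1093 and 662. The labels do not tie the numbers to a shared source, and same-numbered pools correlated at -0.343 to 0.414 (over 0.1 in 4 of 12 pairs). With 1 row per ID pair, added after seeing the data, 0 probes were called.

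Of the 100 members the rule kept 59 after quantile normalization, 40 with median scaling, 55 from the deposited value table, 28 after normexp, 14 without the 3 arrays and 18 (without control replicate 2) to 68 (without PTU replicate 4) with 1 array omitted. Put through the rule in the members' place, 66 partners were kept, a setting added after seeing the data. Both limits were met by 67 probes after normexp and by 121 to 310 with 1 array omitted, and 167 probes form the set without the limit of 100. All T3 pools lay beyond the control range for 8 members, where 4.06% of the 9772 probes did. The count was 3 in the deposited value table (2.24% of probes) and 22 without the 3 arrays (9.73%). It was 10 to 18 with 1 control or T3 array omitted (5.20% to 11.2%), and omitting a PTU array cannot change it. Fewer pools overlap less often, so nothing is read from the higher counts. The 82 higher of 100 became 59 after quantile normalization, 33 with median scaling, 40 in the deposited table and 37 of 67 after normexp. The median difference of all probes moved from 0.11 to -0.0003, -0.126, -0.016 and -0.23. Changes of direction are relative to these shifts.

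For 28 named members, 10 of 560 values changed sign and 24 kept it at less than 0.5 of the size with all pools. Omitting a PTU array cannot alter a T3 minus control difference, so such omissions could not add to these counts. After normexp, with its offset of 50, JC001907 fell to 0.018, JC008349 to 0.030, JC008454 to 0.088 and JC012463 to 0.030. Other members kept most of their size, among them JC001810 at 1.26, JC008252 at 1.22, JC004721 at -1.21 and JC003312 at -1.03. JC005963 turned to -0.90 without outlier spots or without T3 replicate 1, and to -0.083 without the 3 arrays; with 1 array omitted it ran from -0.90 to 3.08. After normexp JC008839 turned to -0.152, JC012404 to -0.047 and JC003173 to -0.0024. With 1 array omitted JC012463 ran from -0.295 (without T3 replicate 1) to 1.70. Over the same omissions JC002193 ran from -0.011 to 1.51, JC008420 from -0.0174 to 1.51 and JC008660 from -0.0249 to 1.45, each lowest without control replicate 2. The cause was not tested.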
